A study of Mus musculus with 12 samples.

Results

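The 47 genes described here encode enzymes and subunits that write, remove or read DNA methylation and histone marks or that move nucleosomes. They were listed by name as chromatin and DNA methylation regulators and not by a cut on their values. Earlier results of these data were known when the list was made, so it was not blind to them. All 47 have a row among the 50600 gene identifiers of the count table. They comprise 3 DNA methyltransferases, 3 TET dioxygenases, 1 reader of methylated DNA, 4 subunits of Polycomb repressive complex 2 (PRC2), 3 of Polycomb repressive complex 1 (PRC1), 9 histone methyltransferases, 5 histone demethylases, 9 deacetylases, 3 acetyltransferases and 7 nucleosome remodelling subunits. Their RNA was measured by limiting-cell RNA-seq (lcRNA-seq) in 12 libraries from the dentate gyrus, the hippocampal region in which neurons are born in adult mice. All animals carried the Nestin-GFP transgene, in which regulatory sequence of the neural stem cell gene nestin drives green fluorescent protein (GFP), and were 6 to 9 weeks old. Live cells without CD31, CD45, O1 and O4 on their surface were sorted by GFP and by GLAST, a glutamate transporter of astrocytes and stem cells. The sort gave 4 libraries of astrocytes (GLAST without GFP), 4 of progenitors (GFP without GLAST) and 4 of stem cells (both), each from 50 cells. No treatment was compared, and the study describes its work on the dentate gyrus as done without pooling of samples.

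Cell identity in the brain is held in part by these proteins. DNA methyltransferases add methyl groups to cytosine, mostly in CG pairs, and TET dioxygenases oxidise them as a step towards removal. Polycomb complexes mark and compact silent genes, whereas the KMT2 methyltransferases mark active promoters and enhancers and the acetyltransferases loosen nucleosomes there. Several of these genes, among them Bmi1, Mbd1, Dnmt3a, Kmt2a, Ezh2 and Chd7, are known from mouse genetics to affect neural stem cells or neurogenesis, though not all in the hippocampus.

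Total counts were 5357232 to 6253680 in the astrocyte libraries, 9041498 to 12535028 in the progenitor libraries and 5031166 to 10435711 in the stem cell libraries. Levels are given as CPM, counts per 1000000 counts of a library after TMM scaling over the 12 libraries, and 3 counts corresponded to 0.207 to 0.653 CPM. The libraries carried no molecular identifiers that the sources name, so such a floor covers counting error only. P-values measure the spread between the 4 libraries of a cell type, which the study describes as biological replicates, and the letters of astrocyte and progenitor libraries are names only. The 12 astrocyte markers examined had at least 10 counts in every library of the 3 cell types, with a summed level of 18831 to 24946 CPM in astrocytes, 8947 to 11689 CPM in progenitors and 27966 to 37087 CPM in stem cells. The 10 neural stem cell markers examined summed to 993 to 1306 CPM in stem cells, 423 to 908 CPM in astrocytes and 540 to 903 CPM in progenitors. Among them Nes, which encodes nestin, was at 0 in the 4 astrocyte libraries and in 3 of the 4 stem cell libraries. In progenitors Nes was at 0.0815 to 20.1 CPM. Immature neuron markers were highest in progenitors, with summed levels of 1935 to 3422 CPM against 101 to 190 CPM in stem cells, and progenitors also held markers of the oligodendrocyte lineage at 2031 to 3096 CPM although the sort excluded O1 and O4. The 12 endothelial and mural markers summed to 2471, 40.7, 2082 and 921 CPM in progenitors a to d, with Vtn among the leading genes and Cldn5 at 0, against 50.3 to 204 CPM in the other cell types. In progenitors 2 of these 12 reached 10 counts in every library, and the part of either list in the results was not tested.

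Most of the 47 regulators were detected in every cell type. At least 10 counts were found for 43.25 ± 1.26 members in astrocytes, 46.5 ± 0.577 in progenitors and 45.75 ± 1.26 in stem cells (SD, n = 4 libraries each). After thinning of all libraries to the smallest, the means were 43, 46.5 and 45. In every library of the cell type, 38 members reached 10 counts in astrocytes, 46 in progenitors and 43 in stem cells.

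The regulators made up more of the counts in astrocyte libraries. Their share of the total count was 0.768, 0.709, 0.651 and 0.576% in astrocytes a to d, 0.428 to 0.478% in progenitors and 0.329 to 0.359% in stem cells, so that the 3 cell types did not overlap. After TMM scaling the summed level of the 47 genes was 9870, 8129, 7621 and 6283 CPM in astrocytes a to d, 3999, 3901, 3533 and 3680 CPM in progenitors a to d, and 3614, 3663, 3512 and 3245 CPM in stem cells 1 to 4. On that scale too every astrocyte library lay above every other library, whereas progenitors and stem cells overlapped. Fewer genes were detected in astrocytes, with 10839 ± 974.9 genes at 10 counts or more against 16619.5 ± 274.3 in progenitors and 13688 ± 343.9 in stem cells (SD, n = 4 each), and the study describes the cDNA of the astrocytes as of lower quality. The part of this difference in the results was not tested. Since each library is a bulk of 50 cells and its levels are relative to its other RNA, fewer cells that express a gene and less of its RNA per cell cannot be told apart. The excess was not spread evenly over the roles. Histone methyltransferases summed to 3050 ± 1131 CPM in astrocytes, 1040 ± 122 CPM in progenitors and 1150 ± 121 CPM in stem cells (SD, n = 4 each), and remodelling subunits to 1901 ± 408, 899 ± 67.4 and 721 ± 75.3 CPM. PRC1 subunits overlapped between the cell types, at 50.8 ± 27.8, 63.7 ± 9.05 and 36.7 ± 15.7 CPM.

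**Figure D1:**
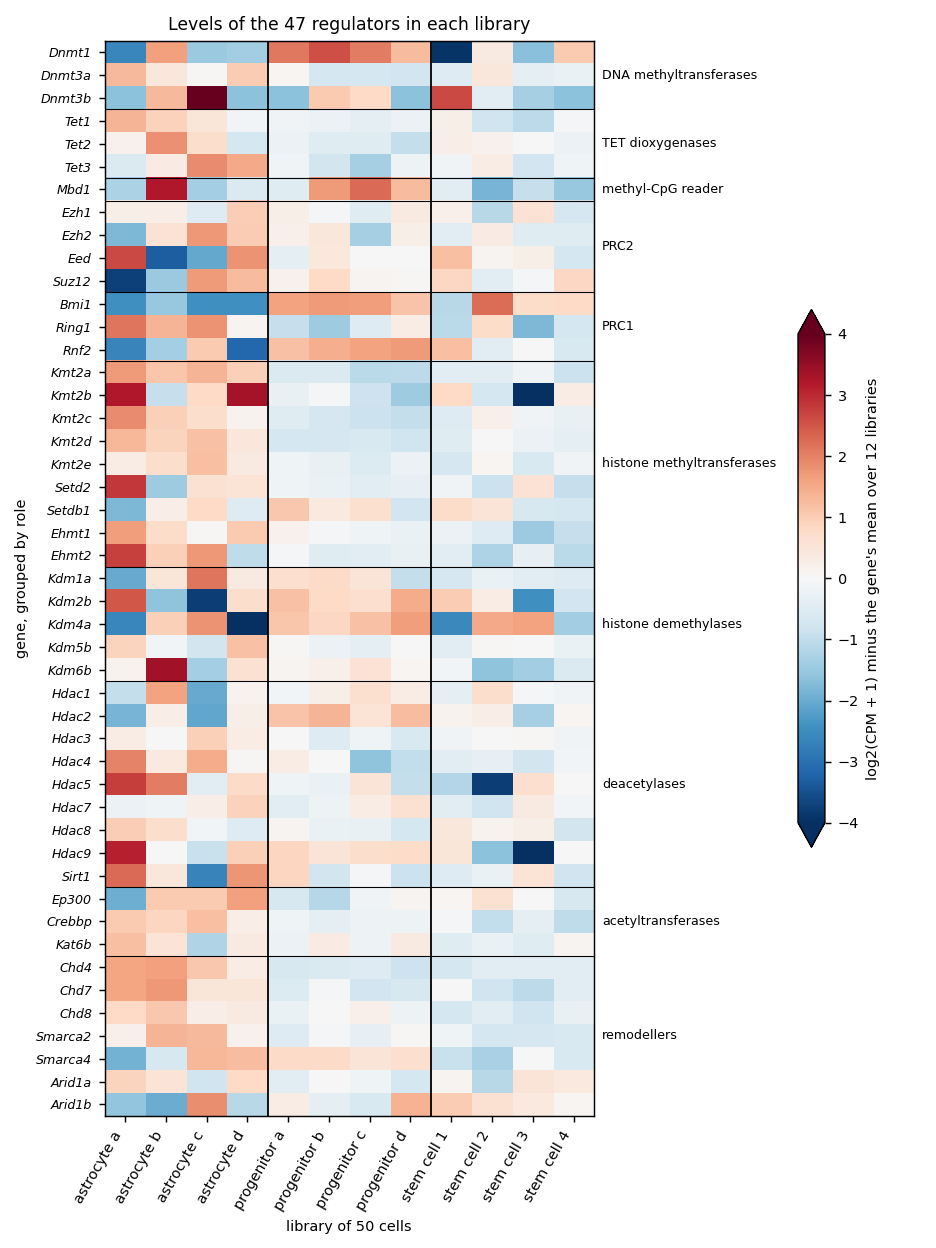
Heat map of the 47 regulators (rows, grouped by role) in the 12 libraries (columns), coloured by log2(CPM + 1) minus the gene's mean over the 12 libraries, from blue (lower) to red (higher). Kmt2a, Kmt2d, Chd4 and Crebbp are red in all 4 astrocyte libraries, Bmi1 is blue in all 4, and single astrocyte libraries stand out for Mbd1, Kdm6b and Dnmt3b.

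The spread between libraries differed by cell type. The coefficient of variation (SD divided by the mean) had a median over the members of 0.668 in astrocytes, 0.229 in progenitors and 0.356 in stem cells. It was above 1 for 14 members in astrocytes, 1 in progenitors and 2 in stem cells. Among genes that reached 10 counts in 3 or more libraries of a cell type, the median over the members was 0.636, 0.225 and 0.356, against 0.800, 0.368 and 0.483 over all such genes. The most even member in astrocytes was Kmt2a, at 0.230, and in progenitors Kmt2d, at 0.0565.

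Per kilobase of exonic length, the scale on which different genes can be compared, the leading members changed with the cell type. In astrocytes the highest levels were those of Chd4 (67.8 ± 25.3 CPM per kb, SD, n = 4), a remodelling ATPase of the NuRD complex, and Kmt2e (50.9 ± 15.5 CPM per kb). In progenitors they were those of Smarca4 (34.6 ± 2.66 CPM per kb), an ATPase of the SWI/SNF complex, and of the deacetylase gene Hdac1 (26.4 ± 5.58 CPM per kb). In stem cells the deacetylase gene Hdac3 (30.6 ± 1.97 CPM per kb) and Kmt2e (25.7 ± 6.45 CPM per kb) came first. The first and the next gene in each of these orders overlapped in their spread. The lowest members were Bmi1 in astrocytes (0.0577 ± 0.115 CPM per kb), Dnmt3b in progenitors (0.478 ± 0.558 CPM per kb) and Mbd1 in stem cells (0.577 ± 0.316 CPM per kb).

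Each pair of cell types was compared over its 8 libraries with edgeR's quasi-likelihood test on the counts, fitted over all genes that reached 10 counts in 4 or more of its libraries. A gene was called at a Benjamini-Hochberg adjusted p under 0.05 over all genes tested. All 47 members passed this count filter in each of the 3 comparisons. The comparisons share their libraries, so a member's fold changes in different comparisons are not independent.

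In astrocytes against progenitors, 5 members rose in astrocytes and none fell. They were the histone methyltransferase genes Kmt2a, Kmt2c and Kmt2d and the remodelling ATPase genes Chd4 and Chd7, with log2 fold changes between 1.63 and 2.09. Of the 14806 genes tested, 8.63% were called, 2.45% as higher and 6.18% as lower in astrocytes, so that the 10.6% of members called as higher stand against a background of 2.45%. The log2 fold change was above 0 for 36 of the 47 members, with a median of 0.97 against 0.03 over all genes tested. The libraries of the cell types did not overlap for 11 members that were higher in astrocytes and 3 that were lower, that is 23.4% and 6.38%, where the same held for 5.98% and 14.9% of all genes tested. Of the members, 21 had an unadjusted p under 0.05 (44.7%, against 18.9% of all genes tested).

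These counts depended on single libraries and on the scaling. Without astrocyte a, 10 members were called, all higher, where 3.54% of all genes were called as higher. Without progenitor c or progenitor d 3 members were called, namely Kmt2a, Kmt2d and Chd4, where 0.95% and 0.991% of all genes were called as higher. Scaling by total counts without TMM factors, chosen after the data were seen, moved the median of all genes by -0.46, and the calls over all genes went from 363 higher of 1278 to 155 higher of 1185. Under that scaling the members' median was 0.50 against -0.43 over all genes, and 4 members were called beside 8% of all genes, with Kmt2a, Kmt2d and Chd4 higher and Bmi1 lower.

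In progenitors against stem cells, 2 members rose in progenitors, the SWI/SNF ATPase gene Smarca4 and the methyl-CpG reader gene Mbd1, and none fell. This is 4.26% of the members, where 8.6% of the 15427 genes tested were called, 4.95% as higher in progenitors and 3.66% as lower. The members' share called was thus not above the background. The log2 fold change was above 0 for 27 members, with a median of 0.11 against 0.04 over all genes. Libraries did not overlap for 6 members higher and 2 lower in progenitors (12.8% and 4.26%), near or below the 11.7% and 7.64% of all genes tested. Scaling by total counts called 3 members, with Hdac2 as the third, beside 9.44% of all genes, and moved the median of all genes by 0.33 and the split of calls over all genes from 763 higher of 1327 to 1158 higher of 1457.

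In astrocytes against stem cells, no member was called by edgeR, and only 6 of the 12831 genes tested were (0.0468%, all higher in astrocytes, against 0% lower). The members nevertheless lay mostly on one side. The log2 fold change was above 0 for 41 of the 47, with a median of 1.08 against 0.14 over all genes tested, and 14 members had an unadjusted p under 0.05 (29.8%, against 9.55% of all genes). Libraries did not overlap for 10 members higher in astrocytes and for 1 lower, that is 21.3% and 2.13%, against 3.75% and 6.23% of all genes tested. DESeq2 called 8 members, of which Kmt2a, Kmt2d, Ehmt1, Crebbp, Chd4, Chd7 and Chd8 were higher and Bmi1 lower, where it called 5.97% of all genes with an adjusted p. A fit over all 12 libraries called 7 members, all higher, and 2.15% of all genes. Across both comparisons, 8 of the 47 members had every astrocyte library above every library of the other cell types, which held for 2.86% of the 12531 genes tested in both.

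**Figure D2:**
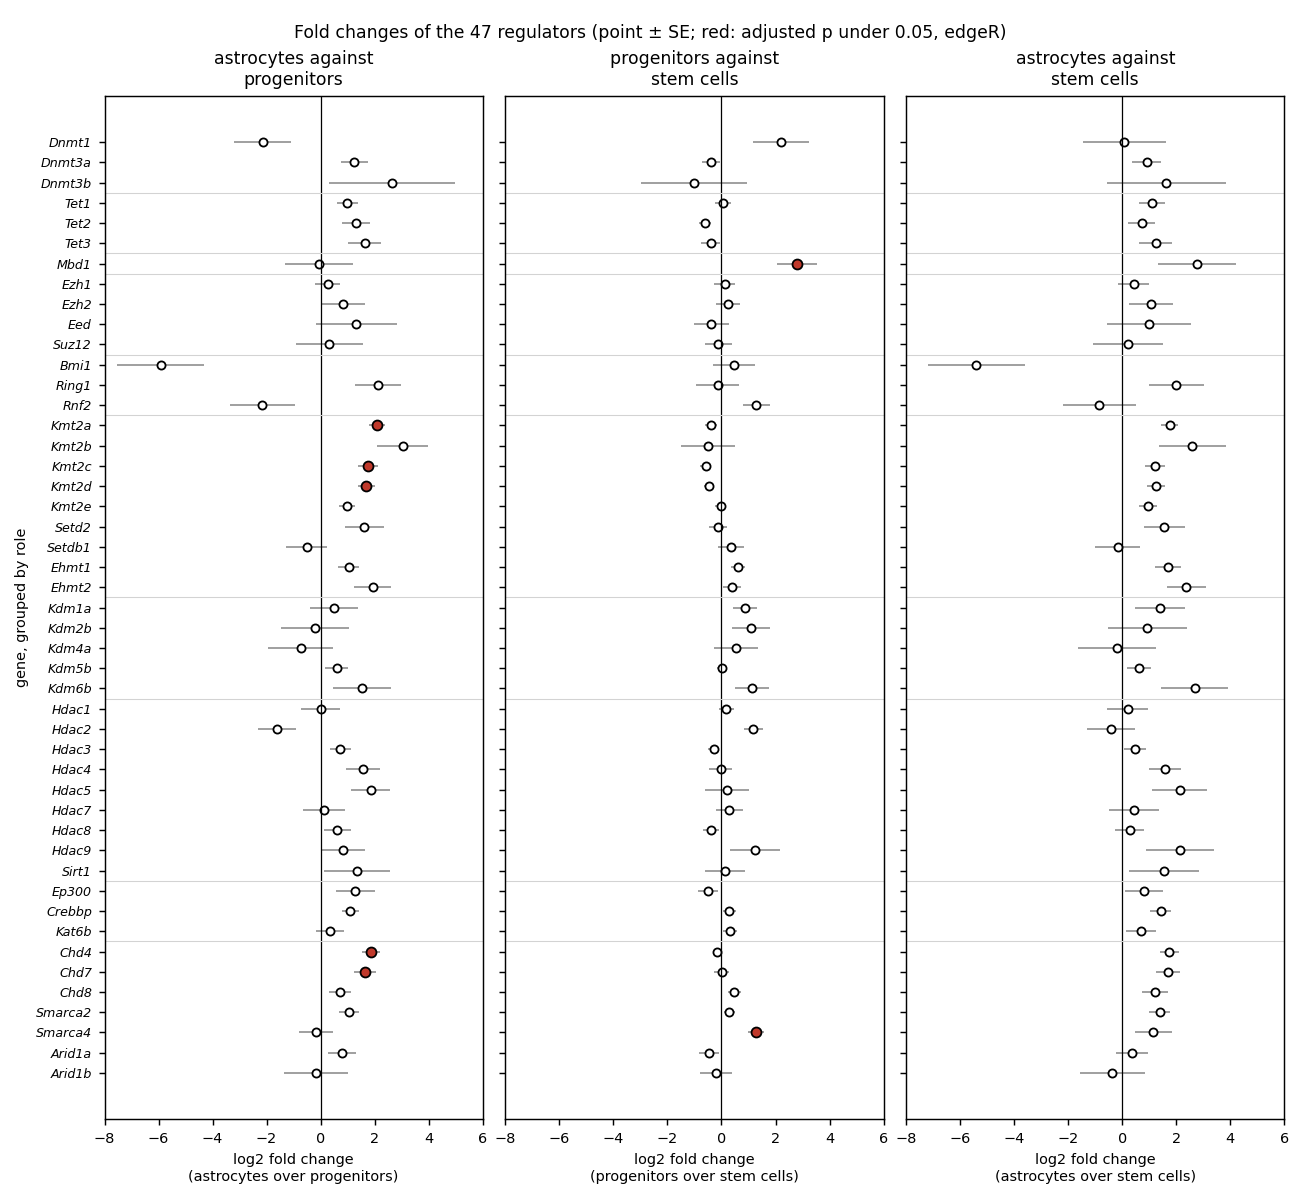
Log2 fold changes of the 47 regulators with their standard errors in the 3 comparisons, grouped by role, as fitted by edgeR. Filled red points passed an adjusted p of 0.05, which 5 members did in astrocytes against progenitors, 2 in progenitors against stem cells and none in astrocytes against stem cells. Long bars mark members such as Dnmt3b and Eed that varied between libraries. Bmi1 has long bars in the comparisons with astrocytes, where it was at 0.917 CPM at most.

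Among the DNA methyltransferases, no member was called in any comparison. Dnmt3a (ENSMUSG00000020661.15, chromosome 12, 3806007 to 3914443, forward strand), which sets new methylation, was at 172, 96.1, 72.2 and 143 CPM in astrocytes a to d, 74.3, 42.6, 42.2 and 40.9 CPM in progenitors a to d, and 49.1, 95.1, 53.1 and 58.0 CPM in stem cells 1 to 4. Progenitor a and stem cell 2 reached into the astrocyte range, and the other 6 libraries of these cell types lay below it. Astrocytes exceeded progenitors by 1.24 on the log2 scale of the fit (standard error 0.50, edgeR, Benjamini-Hochberg adjusted p = 0.195), which did not pass the threshold. Dnmt1, which copies methylation after DNA replication, showed the opposite order. It was at 1.74, 50.4, 4.99 and 5.30 CPM in astrocytes a to d and 39.3 to 98.2 CPM in progenitors, with overlap. The astrocyte log2 fold change over progenitors was -2.15 (standard error 1.06, edgeR, Benjamini-Hochberg adjusted p = 0.32). Of the fits with a library left out, only that without astrocyte b called it (edgeR, Benjamini-Hochberg adjusted p = 0.031). Stem cells held 0.103 to 33.6 CPM and did not overlap with progenitors. Progenitors exceeded stem cells by 2.21 on the log2 scale, which did not pass the threshold either (standard error 1.04, edgeR, Benjamini-Hochberg adjusted p = 0.261). S phase and mitosis markers moved in the same direction, with 8 of 16 at 10 counts or more in every progenitor library against 3 of 16 in stem cells and 0 of 16 in astrocytes. Their summed level was 532, 1896, 256 and 379 CPM in progenitors a to d, 62.8 to 131 CPM in stem cells and 62.3 to 147 CPM in astrocytes. Mki67, Top2a and Aurkb were at 0 in stem cells. In progenitors these genes were at 7.88 to 82.5 CPM in a and b but at 0 to 0.687 CPM in c and d. The part of the S phase and mitosis markers in the result was not tested. Dnmt3b was at or near 0 in most libraries, with 54.5 CPM in astrocyte c and 18.2 CPM in stem cell 1.

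The TET dioxygenases had fold changes above 0 in astrocytes against progenitors for all 3 members under every alternative, and the only call among them was that of Tet3 without astrocyte a. Tet2 (ENSMUSG00000040943.12, chromosome 3, 133463679 to 133545139, reverse strand) was at 202, 644, 294 and 110 CPM in astrocytes a to d, 153, 127, 129 and 92.5 CPM in progenitors a to d, and 218, 203, 178 and 154 CPM in stem cells 1 to 4. Every progenitor library lay below every stem cell library, though progenitor a and stem cell 4 differed by less than 1 CPM. Tet2 thus had a fitted log2 value of -0.61 in progenitors relative to stem cells (standard error 0.21, edgeR, Benjamini-Hochberg adjusted p = 0.109). Tet1 had 115 to 320 CPM in astrocytes, all above the 96.0 to 112 CPM of progenitors, with a log2 fold change of 0.98 (standard error 0.39, edgeR, Benjamini-Hochberg adjusted p = 0.191).

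The methyl-CpG reader gene Mbd1 (ENSMUSG00000024561.8, chromosome 18, 74267605 to 74282732, forward strand) was called in progenitors against stem cells. It was at 6.36, 32.3, 48.1 and 23.6 CPM in progenitors a to d and 6.57, 1.83, 4.48 and 2.60 CPM in stem cells 1 to 4. Progenitor a lay within the stem cell range, and the other 3 progenitor libraries were above it. Its fitted log2 fold change was 2.80 (standard error 0.75, edgeR, Benjamini-Hochberg adjusted p = 0.0475). The call was kept without progenitor a (adjusted p = 0.0282 by edgeR with Benjamini-Hochberg adjustment) and lost without any other single library, with adjusted p between 0.0554 without stem cell 1 and 0.155 without progenitor c. A fit over all 12 libraries gave an adjusted p of 0.413 in edgeR with Benjamini-Hochberg adjustment, and the fit without a count filter 0.0642. In astrocytes Mbd1 was at 3.26, 94.1, 2.99 and 5.91 CPM, so that astrocyte b alone carried the mean.

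None of the 4 PRC2 members was called in any comparison, and their libraries overlapped between cell types throughout. Ezh2 (ENSMUSG00000029687.16, chromosome 6, 47530139 to 47595341, reverse strand), a catalytic subunit that methylates histone H3 at silent genes, was at 10.0, 56.9, 128 and 77.6 CPM in astrocytes a to d, 43.6, 51.5, 14.3 and 44.3 CPM in progenitors a to d, and 27.0, 47.5, 26.9 and 26.4 CPM in stem cells 1 to 4. The widest range was that of the astrocytes. Their fitted difference from progenitors was 0.82 on the log2 scale (standard error 0.81, edgeR, Benjamini-Hochberg adjusted p = 0.677). Its paralog Ezh1 had the higher mean per kilobase in the 3 cell types, 15.9 ± 6.73, 13.0 ± 3.12 and 11.8 ± 6.05 CPM per kb against 10.2 ± 7.32, 5.75 ± 2.46 and 4.78 ± 1.56 CPM per kb for Ezh2 in astrocytes, progenitors and stem cells (SD, n = 4 each). The core partners Eed and Suz12 had means of 9.10 to 23.8 CPM over the cell types, with Eed at 0 in astrocyte b and Suz12 at 0.218 CPM in astrocyte a.

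Bmi1 (ENSMUSG00000026739.13, chromosome 2, 18677018 to 18686629, forward strand), a PRC1 subunit needed for self-renewal of neural stem cells, was close to absent in astrocytes. It was at 0, 0.917, 0 and 0 CPM in astrocytes a to d, where astrocyte b had 5 counts, and at 15.7, 16.9, 16.4 and 11 CPM in progenitors a to d. Stem cells 1 to 4 held 1.54, 24.5, 8.08 and 8.55 CPM, so that every library of both Nestin-GFP populations was above every astrocyte library. Fitted against progenitors, the astrocyte log2 fold change was -5.92 (standard error 1.62, edgeR, Benjamini-Hochberg adjusted p = 0.05001), just short of the threshold, and the fitted value depends on the prior count because 3 astrocyte libraries were at 0. It was called by 4 of the 7 alternatives that tested it, over which the adjusted p in edgeR or DESeq2 ranged from 2.27e-05 with DESeq2 to 0.12 without a count filter, and in 1 of 8 fits with a library left out, namely without astrocyte b (adjusted p = 0.0275 by edgeR with Benjamini-Hochberg adjustment). Against stem cells the fitted log2 fold change was -5.41 (standard error 1.80, edgeR, Benjamini-Hochberg adjusted p = 0.28). The other PRC1 members went different ways. Rnf2, an E3 ligase for histone H2A, was lower in every astrocyte library (0.611 to 28.5 CPM) than in any progenitor library (30.9 to 45.8 CPM), with an adjusted p of 0.391 in edgeR with Benjamini-Hochberg adjustment. In progenitors against stem cells, Rnf2 was called by DESeq2 and without stem cell 1, where its adjusted p in edgeR with Benjamini-Hochberg adjustment was 0.0373. Its paralog Ring1 had 15.1 to 64.2 CPM in astrocytes and 4.56 to 17.1 CPM in progenitors (log2 fold change 2.11, standard error 0.86, edgeR, Benjamini-Hochberg adjusted p = 0.203).

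The histone methyltransferases held 3 of the 5 members called in astrocytes against progenitors, and 8 of the 9 had a fold change above 0 there. Kmt2a (ENSMUSG00000002028.13, chromosome 9, 44803355 to 44881296, reverse strand), also known as MLL1, was at 755, 505, 600 and 452 CPM in astrocytes a to d, 156, 156, 108 and 113 CPM in progenitors a to d, and 172, 169, 211 and 126 CPM in stem cells 1 to 4. The lowest astrocyte library was well above the highest of the other 8. Astrocytes exceeded progenitors by 2.09 on the log2 scale (standard error 0.29, edgeR, Benjamini-Hochberg adjusted p = 0.00617), and Kmt2a was called in all 8 alternatives and in all 8 fits with a library left out. Over stem cells it was 1.75 (standard error 0.31, edgeR, Benjamini-Hochberg adjusted p = 0.0923), the smallest p of any member in that comparison.

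Kmt2c (ENSMUSG00000038056.15, chromosome 5, 25271798 to 25498783, reverse strand) and Kmt2d (ENSMUSG00000048154.16, chromosome 15, 98831669 to 98871204, reverse strand) encode the paired enzymes that mark enhancers. Kmt2c was at 1183, 607, 519 and 352 CPM in astrocytes a to d, 225, 200, 175 and 164 CPM in progenitors a to d, and 222, 363, 290 and 255 CPM in stem cells 1 to 4. Astrocytes and progenitors did not overlap, whereas astrocyte d lay below stem cell 2. Against progenitors the log2 fold change was 1.76 (standard error 0.37, edgeR, Benjamini-Hochberg adjusted p = 0.0167). The call was lost without progenitor c or progenitor d (adjusted p = 0.0575 and 0.0573 by edgeR with Benjamini-Hochberg adjustment) and with scaling by total counts (0.0551). Kmt2d was at 452, 329, 404 and 245 CPM in astrocytes a to d, 109, 111, 116 and 101 CPM in progenitors a to d, and 126, 178, 151 and 137 CPM in stem cells 1 to 4. All 4 astrocyte libraries exceeded the other 8, and every progenitor library lay below every stem cell library. Its log2 fold change over progenitors was 1.68 (standard error 0.32, edgeR, Benjamini-Hochberg adjusted p = 0.016), called in every alternative and every fit with a library left out.

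Kmt2e (ENSMUSG00000029004.15, chromosome 5, 23434441 to 23504235, forward strand) encodes a relative of these enzymes without clear methyltransferase activity. It was at 407, 541, 757 and 420 CPM in astrocytes a to d, 294, 269, 227 and 283 CPM in progenitors a to d, and 208, 348, 218 and 300 CPM in stem cells 1 to 4. Astrocytes did not overlap with either other cell type. Against progenitors it reached 0.97 on the log2 scale (standard error 0.29, edgeR, Benjamini-Hochberg adjusted p = 0.0774), and it passed the threshold without astrocyte a and in the fit over all 12 libraries. Of its exonic bases, 9.3% overlap Srpk2 on the opposite strand, and since reads were counted without regard to strand those of the 2 genes cannot be told apart there. The corresponding overlaps were 2.3% for Kmt2a and 1.4% for Kmt2c. Of the other histone methyltransferases, Kmt2b had the largest fitted log2 fold change over progenitors, 3.04 (standard error 0.94, edgeR, Benjamini-Hochberg adjusted p = 0.0825), but ranged from 10.8 to 220 CPM among astrocytes. Ehmt1 was at 133 to 412 CPM in astrocytes and 46.4 to 109 CPM in stem cells, without overlap. Setdb1, which silences repeats, was the only one with a fold change below 0 over progenitors, at -0.52 (standard error 0.76).

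Promoters are shown for 5 of the 7 called genes, to set the sequence before their starts beside their levels. RefSeq entries on GRCm38.p6 were used for 40 of the 47 members, with 55 start sites among them. Given here are the 250 bases before the start of the 3 methyltransferase genes and of Chd4, which rose in astrocytes over progenitors, and of Smarca4, which rose in progenitors over stem cells. They are written 5′ to 3′ on the gene's strand, with every GGGCGG on either strand (as CCGCCC on the reverse), the core of the GC box bound by Sp1 family factors, in capitals.
Kmt2a, chr9:44881290-44881539, reverse strand: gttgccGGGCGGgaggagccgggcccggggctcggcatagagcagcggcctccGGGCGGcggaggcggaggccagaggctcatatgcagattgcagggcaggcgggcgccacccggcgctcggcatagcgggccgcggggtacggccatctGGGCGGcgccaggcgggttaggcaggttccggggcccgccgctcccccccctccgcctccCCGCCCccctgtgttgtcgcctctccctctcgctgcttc
Kmt2c, chr5:25498784-25499033, reverse strand: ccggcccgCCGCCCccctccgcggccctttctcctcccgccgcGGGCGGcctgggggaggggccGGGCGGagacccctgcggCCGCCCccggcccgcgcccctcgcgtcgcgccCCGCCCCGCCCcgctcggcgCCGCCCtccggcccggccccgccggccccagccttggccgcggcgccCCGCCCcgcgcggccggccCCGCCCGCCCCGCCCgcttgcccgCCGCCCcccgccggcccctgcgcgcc
Kmt2d, chr15:98871206-98871455, reverse strand: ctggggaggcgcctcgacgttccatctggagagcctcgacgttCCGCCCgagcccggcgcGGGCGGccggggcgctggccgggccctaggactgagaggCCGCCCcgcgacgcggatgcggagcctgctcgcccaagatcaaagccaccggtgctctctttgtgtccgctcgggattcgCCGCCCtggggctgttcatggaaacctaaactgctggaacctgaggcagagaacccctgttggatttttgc
Chd4, chr6:125095731-125095980, forward strand: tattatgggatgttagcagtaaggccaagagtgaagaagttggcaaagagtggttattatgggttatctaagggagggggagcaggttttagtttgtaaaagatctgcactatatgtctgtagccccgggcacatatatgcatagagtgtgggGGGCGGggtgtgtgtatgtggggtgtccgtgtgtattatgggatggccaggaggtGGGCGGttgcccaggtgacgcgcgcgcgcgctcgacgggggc
Smarca4, chr9:21615919-21616168, forward strand: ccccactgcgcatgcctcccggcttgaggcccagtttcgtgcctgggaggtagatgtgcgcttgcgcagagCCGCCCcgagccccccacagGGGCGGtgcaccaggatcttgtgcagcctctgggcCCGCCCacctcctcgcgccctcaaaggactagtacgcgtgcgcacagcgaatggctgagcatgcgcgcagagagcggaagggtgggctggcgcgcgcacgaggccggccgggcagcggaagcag
These windows hold 4, 12, 4, 2 and 3 such matches, overlapping ones included. A second start of Chd4, whose window at chr6:125095913-125096162 is not printed, has 3 matches and 23 CG pairs. GGGCGG on either strand was found in 41 of the 55 members' windows (74.5%) and in 32.7% of the 32851 promoters of the table. Members' windows held 0 to 51 CG pairs with a median of 23, against a median of 6 over all promoters, and the 5 shown held 29, 48, 26, 12 and 25. Other motifs searched on both strands were near their share of all promoters or rare. CCGGAA was in 16.4% of members' windows against 12% of all, CACGTG in 9.09% against 6.02%, CCAAT in 27.3% against 33.8%, and AAGATGGCG in none against 0.606%. A match is a description of the letters, and its part in the levels was not tested.

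None of the 5 histone demethylase genes was called. Kdm6b (ENSMUSG00000018476.7, chromosome 11, 69398508 to 69413675, reverse strand), which removes the Polycomb mark from histone H3, was at 13.7, 136, 4.19 and 19.6 CPM in astrocytes a to d, 13.3, 14.3, 19.1 and 13.0 CPM in progenitors a to d, and 11.4, 3.39, 4.10 and 7.99 CPM in stem cells 1 to 4. Every progenitor library was above every stem cell library, while astrocyte b stood alone. Progenitors exceeded stem cells by 1.12 on the log2 scale (standard error 0.63, edgeR, Benjamini-Hochberg adjusted p = 0.362). Against progenitors, the astrocyte log2 fold change was 1.52 (standard error 1.07) and became -0.30 without astrocyte b. Of its exonic bases, 4.1% overlap Kdm6bos on the opposite strand. Kdm5b, an eraser of the active promoter mark, was the most abundant of the group, with means of 324 ± 178, 211 ± 28.6 and 207 ± 33.4 CPM in astrocytes, progenitors and stem cells (SD, n = 4 each), and overlapped between them.

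None of the 9 deacetylase genes was called. Their summed level was 587 to 1213 CPM in astrocytes, just above the 478 to 584 CPM of progenitors and above the 432 to 474 CPM of stem cells, and the log2 fold change was above 0 for 7 of 9 over progenitors and 8 of 9 over stem cells. Hdac2 (ENSMUSG00000019777.16, chromosome 10, 36974544 to 37001889, forward strand), a class I deacetylase of the NuRD, Sin3 and CoREST complexes, was at 12, 55.9, 10.2 and 54.6 CPM in astrocytes a to d, 103, 122, 68.3 and 111 CPM in progenitors a to d, and 50.9, 56.4, 17.9 and 49.6 CPM in stem cells 1 to 4. All 4 progenitor libraries were above the other 8. Over stem cells it was higher by 1.18 on the log2 scale (standard error 0.37, edgeR, Benjamini-Hochberg adjusted p = 0.0839), past the threshold in 3 of 8 alternatives and in no fit with a library left out. Astrocytes against progenitors gave -1.62 (standard error 0.71, edgeR, Benjamini-Hochberg adjusted p = 0.247). Its paralog Hdac1 had similar means in the cell types, 91.8 ± 95.8, 90.9 ± 19.2 and 78.9 ± 28.1 CPM in astrocytes, progenitors and stem cells (SD, n = 4 each), although astrocytes ranged from 17.6 to 230 CPM. Hdac3, the catalytic partner of the NCoR corepressors, was at 127 to 251 CPM in astrocytes, just above the 83.6 to 127 CPM of progenitors, with a log2 fold change of 0.72 (standard error 0.39, edgeR, Benjamini-Hochberg adjusted p = 0.373). The class II genes Hdac4 and Hdac5 had log2 fold changes of 1.56 (standard error 0.64) and 1.86 (standard error 0.73) over progenitors, with overlapping libraries. Of the exonic bases of Hdac4, 22.4% overlap Gm26720 on the opposite strand.

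Of the acetyltransferases, Crebbp (ENSMUSG00000022521.10, chromosome 16, 4081328 to 4213997, reverse strand), the CBP coactivator, separated the astrocytes. It was at 373, 323, 414 and 214 CPM in astrocytes a to d, 160, 137, 156 and 153 CPM in progenitors a to d, and 174, 89.6, 136 and 87.7 CPM in stem cells 1 to 4. The lowest astrocyte library was above the highest of the other 8. Its log2 fold change was 1.10 over progenitors (standard error 0.32, edgeR, Benjamini-Hochberg adjusted p = 0.0596) and 1.42 over stem cells (standard error 0.39, edgeR, Benjamini-Hochberg adjusted p = 0.162). Over progenitors it was called in 3 of 8 alternatives and without astrocyte a or astrocyte d. Its paralog Ep300 had a similar fitted log2 fold change over progenitors, 1.29, but a larger standard error of 0.72, as astrocytes ranged from 15.2 to 194 CPM.

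The remodelling genes included 2 members that rose in astrocytes and 1 that rose in progenitors. Chd4 (ENSMUSG00000063870.12, chromosome 6, 125095981 to 125130591, forward strand) was at 684, 724, 483 and 284 CPM in astrocytes a to d, 148, 154, 160 and 129 CPM in progenitors a to d, and 141, 169, 166 and 168 CPM in stem cells 1 to 4. All astrocyte libraries were above the other 8, which lay close together. Against progenitors the difference was 1.85 on the log2 scale (standard error 0.34, edgeR, Benjamini-Hochberg adjusted p = 0.016), called in all 8 alternatives and all 8 fits with a library left out, and over stem cells 1.73 (standard error 0.35, edgeR, Benjamini-Hochberg adjusted p = 0.0923). In those 8 fits its adjusted p (edgeR, Benjamini-Hochberg) was 0.0498 at most.

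Chd7 (ENSMUSG00000041235.11, chromosome 4, 8690406 to 8867659, forward strand), the enhancer-bound remodeller mutated in CHARGE syndrome, was at 480, 540, 228 and 226 CPM in astrocytes a to d, 109, 158, 94.3 and 102 CPM in progenitors a to d, and 159, 93.2, 78.4 and 120 CPM in stem cells 1 to 4. Astrocytes again lay above the other 8 libraries, with a and b well above c and d. Against progenitors the log2 fold change was 1.63 (standard error 0.40, edgeR, Benjamini-Hochberg adjusted p = 0.029). The call was lost in 4 of 8 fits, with adjusted p (edgeR, Benjamini-Hochberg) of 0.0651 without astrocyte b, 0.0937 without progenitor a, 0.105 without progenitor c and 0.102 without progenitor d. It was also lost with scaling by total counts (0.128), without a count filter (0.0794) and with at least 10 counts in every library (0.0778).

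Chd8 (ENSMUSG00000053754.13, chromosome 14, 52198151 to 52257780, reverse strand), whose mutations are found in autism, was at 157, 192, 108 and 116 CPM in astrocytes a to d, 74.6, 88.7, 104 and 77.3 CPM in progenitors a to d, and 54.4, 65.0, 51.2 and 73.0 CPM in stem cells 1 to 4. The 3 cell types did not overlap, in the order astrocytes, progenitors, stem cells, though neighbouring libraries were close. No step was called, with log2 fold changes of 0.71 for astrocytes over progenitors (standard error 0.40, edgeR, Benjamini-Hochberg adjusted p = 0.397) and 0.47 for progenitors over stem cells (standard error 0.24, edgeR, Benjamini-Hochberg adjusted p = 0.306). Of its exonic bases, 5.8% overlap Gm26590 on the opposite strand.

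Smarca2 and Smarca4 encode alternative ATPases of SWI/SNF complexes, BRM and BRG1, and differed in pattern. Smarca4 (ENSMUSG00000032187.16, chromosome 9, 21616169 to 21704230, forward strand) was at 236, 237, 200 and 223 CPM in progenitors a to d and 74.2, 55.9, 140 and 90.8 CPM in stem cells 1 to 4, without overlap. Progenitors exceeded stem cells by 1.28 on the log2 scale (standard error 0.28, edgeR, Benjamini-Hochberg adjusted p = 0.0184). The call was kept in 7 of 8 fits with a library left out, with an adjusted p of 0.0554 without stem cell 1 (edgeR with Benjamini-Hochberg adjustment), and in 7 of 8 alternatives, the fit over all 12 libraries giving 0.432. In astrocytes a to d it was at 36.8, 87.8, 352 and 328 CPM, a pair of libraries below and a pair above all progenitor libraries. Smarca2 (ENSMUSG00000024921.17, chromosome 19, 26605050 to 26778322, forward strand) was at 336, 748, 714 and 328 CPM in astrocytes a to d, 203, 274, 233 and 302 CPM in progenitors a to d, and 257, 178, 183 and 192 CPM in stem cells 1 to 4. Its astrocyte libraries were above the other 8, with log2 fold changes of 1.06 over progenitors (standard error 0.36, edgeR, Benjamini-Hochberg adjusted p = 0.123) and 1.38 over stem cells (standard error 0.37, edgeR, Benjamini-Hochberg adjusted p = 0.159). The SWI/SNF subunit genes Arid1a and Arid1b overlapped between cell types in every comparison.

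**Figure D3:**
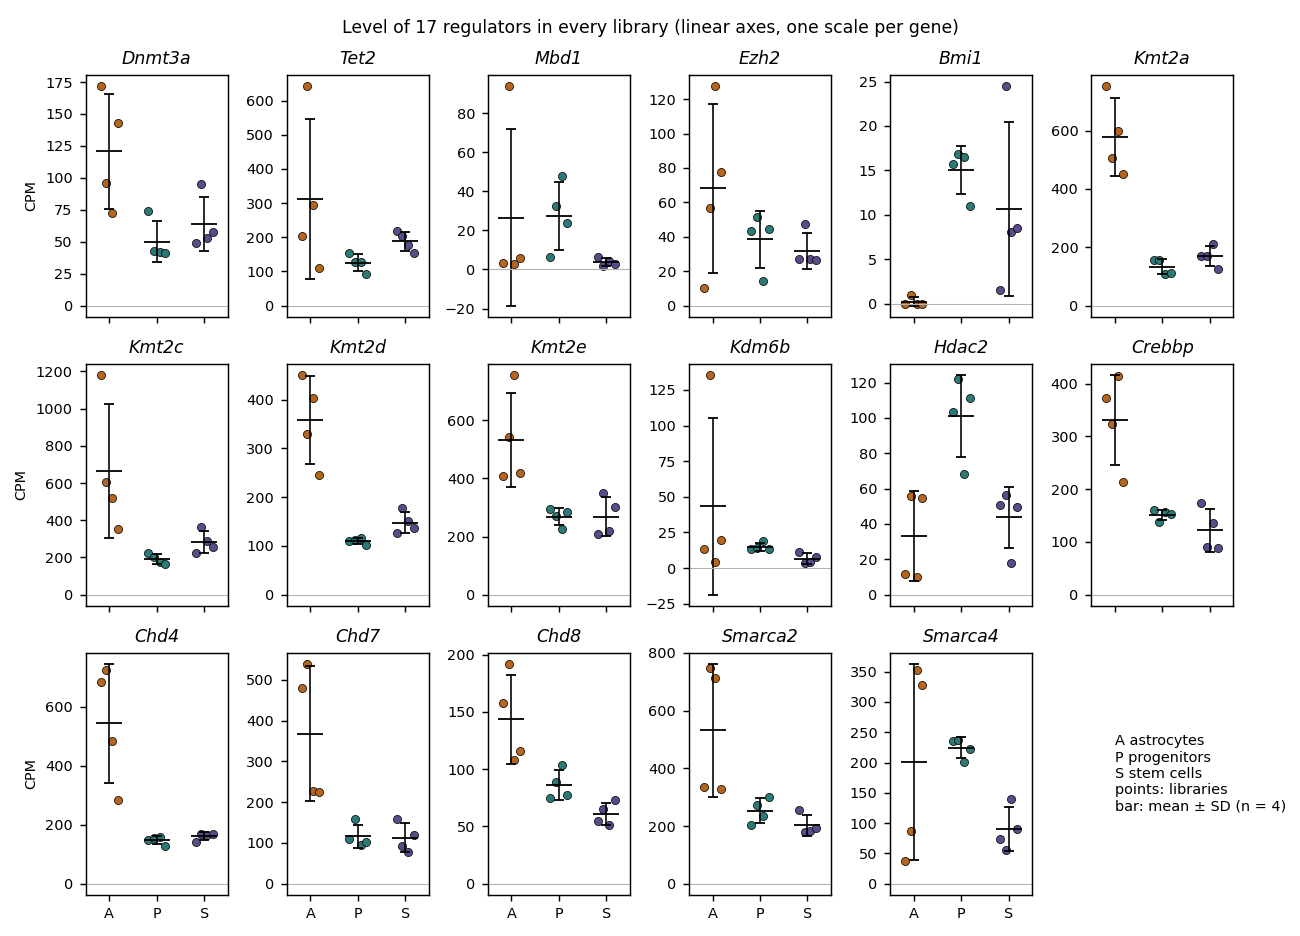
CPM of 17 regulators in every library on linear axes with a scale for each gene. Points are libraries and bars the mean ± SD (n = 4) for astrocytes (A), progenitors (P) and stem cells (S). Kmt2a, Kmt2d, Kmt2e, Crebbp, Chd4, Chd7, Chd8 and Smarca2 show the 4 astrocyte libraries above the other 8, Hdac2 shows progenitors above, and Mbd1 and Kdm6b each have a single high astrocyte library.

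Beside the result in astrocytes, markers of other cell types differed as well. The 10 mature neuron markers examined summed to 6920, 3211, 2992 and 899 CPM in astrocytes a to d, 442 to 561 CPM in progenitors and 525 to 902 CPM in stem cells. Of these markers, 6 of 10 reached 10 counts in every astrocyte library, 8 of 10 in every progenitor library and 6 of 10 in every stem cell library, and none was at 0 throughout in astrocytes or progenitors, while Gad2 was in stem cells. Astrocyte a was highest and astrocyte d lowest both in this sum and in that of the 47 members. In astrocyte d the members summed to 6283 CPM and the neuronal list to 899 CPM, within the 525 to 902 CPM of stem cells. In this library Camk2a was at 459 CPM against 181 to 406 CPM in stem cells. Snap25 was at 122 CPM against at most 101 CPM in the other cell types. Rbfox3, Slc17a7 and Gad2 also lay above every stem cell library there. Syt1, Map2 and Syn1 lay below every stem cell library, and Gad1 and Nrgn lay within the stem cell range. The 11 markers of the oligodendrocyte lineage summed to 3600, 1422, 824 and 498 CPM in astrocytes a to d and 538 to 961 CPM in stem cells. Among them Mobp, a myelin gene, was at 115 to 581 CPM in astrocytes, 0.172 to 37.6 CPM in progenitors and 0.513 to 84.2 CPM in stem cells, and 5 of 11 reached 10 counts in every astrocyte library while Mag was at 0 in all 4. This sum, too, was highest in astrocyte a and lowest in astrocyte d. The part of these markers in the results was not tested.

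The members are long genes, and long genes as a class were higher in the astrocyte libraries. The median exonic length was 8.12 kb (3.24 to 20.3 kb), with 25 of 47 members at 8 kb or more, against 4.05 kb over all genes tested in astrocytes against progenitors. Over all genes tested in that comparison, the median log2 fold change was -0.21 at 2 to 4 kb, 0.02 at 4 to 8 kb, 0.36 at 8 to 16 kb (2139 genes) and 0.86 at 16 kb or more (304 genes, of which 14.1% were called as higher). The members' medians in the same classes were 0.66 (4 members), 0.29 (18), 1.08 (16) and 1.30 (9). Against stem cells, the medians of all genes in these classes were -0.11, 0.17, 0.52 and 0.85, and those of the members 0.60, 0.46, 1.49 and 1.21. Members were all longer than 2 kb. Genes under 1 kb also lay above 0 in astrocytes, with medians of 0.25 against progenitors (1390 genes) and 0.12 against stem cells. At 1 to 2 kb both medians were -0.09. In progenitors against stem cells, the medians over all genes lay between -0.16 and 0.13 in every class. Of the called members, Kmt2a, Kmt2c and Kmt2d have 16.7, 20.3 and 19.9 kb of exonic sequence, Chd7 13.8 kb and Chd4 8.02 kb, and the part of length in the results was not tested beyond these medians.

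**Figure D4:**
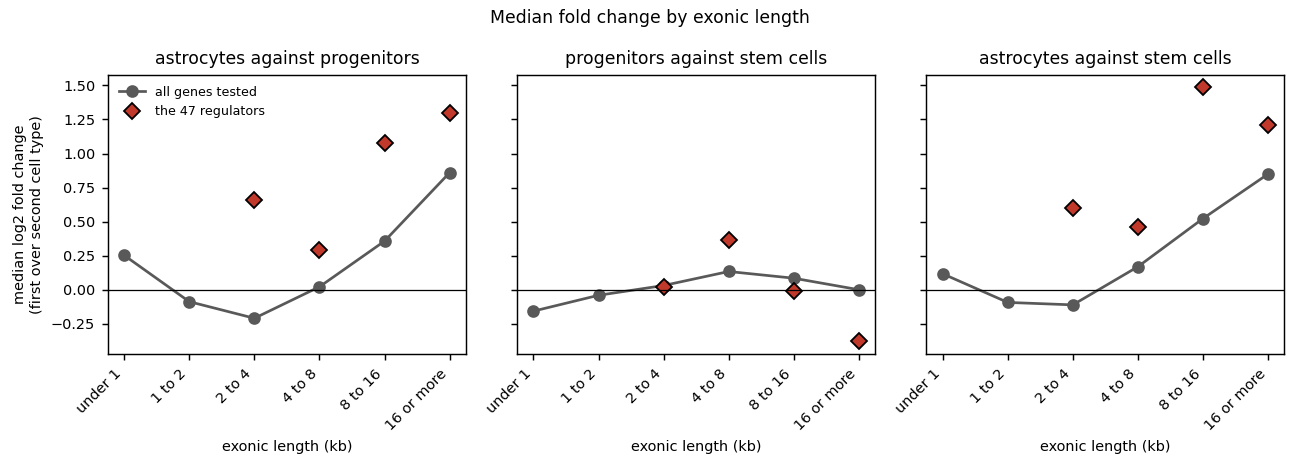
Median log2 fold change by exonic length for all genes tested (grey, joined) and for the 47 regulators (red diamonds) in the 3 comparisons. Both comparisons that involve astrocytes climb from 2 kb upwards over all genes, to 0.86 and 0.85 at 16 kb or more, while progenitors against stem cells stay between -0.16 and 0.13.

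Other chromatin regulators were counted from a wider list of 155 genes, of which 154 had a row in the table. In astrocytes against progenitors, 149 were tested, and 8 were called as higher and 3 as lower (5.37% and 2.01%, against 2.45% and 6.18% of all genes), with a median log2 fold change of 0.26. Remodelling genes gave 6 of the 8. The 5 of smallest p were all higher in astrocytes, with log2 fold changes (edgeR) of 2.01 for the histone methyltransferase gene Ash1l (standard error 0.29), 1.65 for the remodeller gene Chd9 (0.24), 2.08 for the corepressor gene Ncor1 (0.35), 1.49 for the SWI/SNF subunit gene Smarcc2 (0.27) and 1.61 for Atrx (0.30), whose product places a histone variant in heterochromatin. Each of these 5 was called in all 8 fits with a library left out. The 3 lower ones were Smyd2, Setdb2 and Dpf2, and Setdb2 was at 0 in all 4 astrocyte libraries, at least 18.9-fold lower than in progenitors when 3 counts per library are taken as the floor. That bound rested on progenitor d, since Setdb2 was at 1.45, 8.96, 6.03 and 29.1 CPM in progenitors a to d, and it is 9.09-fold without this library. Smyd2, Setdb2 and Dpf2 were called in 6, 5 and 5 of the 8 fits with a library left out.

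In progenitors against stem cells, 149 genes of the wider list were tested, and 3 were called as higher and 1 as lower (2.01% and 0.671%, against 4.95% and 3.66% of all genes). Asxl3, a partner of the Polycomb deubiquitinase, was at 38.0, 23.6, 14.7 and 19.1 CPM in progenitors a to d and at 0 in all stem cell libraries, at least 58.5-fold higher with a floor of 3 counts per library. Tdg, the glycosylase that removes oxidised methylcytosine after the TET enzymes, had a log2 fold change of 2.02 (standard error 0.47, edgeR, Benjamini-Hochberg adjusted p = 0.0244) and was called in 5 of 8 fits with a library left out. The deacetylase gene Sirt7 fell by 1.36 on the log2 scale in progenitors (standard error 0.28, edgeR, Benjamini-Hochberg adjusted p = 0.0152), also in 5 of 8. The PRC1 gene Pcgf2 was called as higher but in only 1 of 8 such fits. In astrocytes against stem cells, 139 were tested and none was called by edgeR, 22 having an unadjusted p under 0.05.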

How the data were processed

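RNA of 50 sorted cells per library was amplified with the SMARTer v4 kit and made into libraries with Nextera XT. Per the labels and the study's methods, the authors trimmed reads with AdapterRemoval, excluded those matching PhiX, mitochondrial DNA or ribosomal RNA, aligned the rest to GRCm38.p4 with HISAT2 2.0.6 and made the deposited counts per gene (GENCODE M14) with featureCounts, without regard to strand. The transcript coverage filter of the study was not applied here, since the deposited table holds counts only. Of 50600 identifiers, 50376 matched a symbol. Coordinates and exonic lengths are from GENCODE M21 on GRCm38.

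Cell types were compared pairwise with edgeR 4.0.16 (R 4.3.3), with TMM scaling, the quasi-likelihood test, a minimum of 10 counts in 4 of 8 libraries and a Benjamini-Hochberg threshold of 0.05. Alternatives were RLE scaling, DESeq2 1.42.0, other count filters, all 12 libraries in one fit, thinning to the smallest library, robust estimation, each library left out and, chosen after seeing the data, scaling by total counts. The fits were tested on simulated counts that had less spread than these libraries, so that test does not cover the spread seen here. Tables and figures used Python 3.11.15, numpy 2.4.6, pandas 2.3.3, scipy 1.17.1 and matplotlib 3.10.9. Values in every library were given for members called in any comparison, members whose libraries did not overlap in at least 2 comparisons, and the member of smallest p in each role. Further members were named by ranges. From the wider list, the 5 called genes of smallest p in each comparison were named, and the remaining lower ones after their values were seen. The members and all lists were chosen with earlier results of these data known.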

Additional observations from a re-analysis of the deposited data

Results flagged for a closer look

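The highest or lowest of the 4 libraries of a cell type stood far from the others, relative to the range of the group, in 6 of the 51 group values examined. The rule flags about 1 in 20 groups when values are normally distributed. That was not shown for CPM, so no excess can be read from the 6. Dnmt3a was at 74.3 CPM in progenitor a against 40.9 to 42.6 CPM in the other progenitor libraries. Mbd1 was at 94.1 CPM in astrocyte b against 2.99 to 5.91 CPM in the other astrocyte libraries. Kdm6b was at 136 CPM in astrocyte b against 4.19 to 19.6 CPM. Bmi1 was at 0.917 CPM in astrocyte b and at 0 in the other 3. Ezh2 was at 47.5 CPM in stem cell 2 against 26.4 to 27.0 CPM. Chd4 was lowest in stem cell 1, at 141 CPM against 166 to 169 CPM.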

How the results depend on the processing

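No paired analysis was possible because the astrocyte and progenitor columns carry no replicate number. Kmt2a, Kmt2d and Chd4 were called as higher in astrocytes than in progenitors under all 8 alternatives and all 8 fits with a library left out. The number of members called there was 5, beside 8.63% of all genes. It was 9 with DESeq2, beside 2968 of 27810 genes fitted, including those without an adjusted p. With all 12 libraries in one fit it was 8, beside 1385 of 16119 genes. It was 3 to 10 with a library left out, beside 719 to 1871 calls over all genes. The members' median log2 fold change was 0.50 with total-count scaling, chosen after seeing the data, and 0.63 with at least 10 counts in every library, a filter that left 38 members and moved the median of all genes by -0.37. In progenitors against stem cells, 2 members were called, beside 8.6% of all genes. DESeq2 called 4, beside 3092 of 26218 genes fitted, and the fit without a count filter 1, beside 1045 of 26218. All 12 libraries in one fit called 0, beside 381 of 16119. With a library left out 1 to 2 were called, Rnf2 alone without stem cell 1, beside 830 to 1383 calls over all genes. The median was 0.47 with total-count scaling. In astrocytes against stem cells, 0 members were called by edgeR, 8 by DESeq2 and 7 with all 12 libraries in one fit. Beside these stood 0.0468%, 5.97% (of genes with an adjusted p) and 2.15% of all genes. Calls over all genes moved from 1278 to 2968 (DESeq2), 529 (no filter) and 287 (10 counts in every library) in astrocytes against progenitors, from 1327 to 3092 (DESeq2) and 381 (all 12 libraries) in progenitors against stem cells, and from 6 to 876 (DESeq2), 16 (no filter), 12 (10 counts in every library) and 346 (all 12 libraries) in astrocytes against stem cells. Members with at least 1 count numbered 45.5 on average in astrocytes. Among the 17 members given in every library, some fold changes that had not been called changed sign. For astrocytes against progenitors this was Mbd1 (0.037 after thinning, and -2.79 to 0.34 with a library left out), Kdm6b (-0.30 to 1.90) and Smarca4 (-0.58 to 0.20). For progenitors against stem cells it was Kmt2e (0.28 with total-count scaling, 0.00024 with DESeq2, 0.0075 without a filter, 0.053 with 10 counts in every library, and -0.14 to 0.11 with a library left out), Chd4 (0.17 with total-count scaling) and Chd7 (-0.018 after thinning, and -0.16 to 0.22 with a library left out). The cause was not tested. Over the members followed in every fit, 366 of the values under other settings kept direction and side of the threshold, 24 passed it newly, 7 lost it and 7 changed sign. The biological coefficient of variation was 1.09 within astrocytes, 0.581 within progenitors and 0.712 within stem cells, and the comparisons with astrocytes are the less precise for it.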
